A study of Mus musculus with 6 samples.

Results

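The genes described here are 37 genes of macroautophagy, chosen by name and not by a rule on their values, though with earlier results of these data known. They are 8 that start the process, 8 that act in nucleation of the membrane, 11 that act in the ubiquitin-like conjugation reactions, the 5 members of the LC3 family and 5 cargo receptors. They were found by symbol among the 39179 genes of the count table, and all 37 were among the 15576 genes with enough counts to be tested. In macroautophagy a double membrane grows around cytoplasm, organelles or protein aggregates and carries them to the lysosome for breakdown. Membrane growth depends on the attachment of LC3 family proteins to a lipid, and cargo receptors tie the load to them. Cortical thymic epithelial cells (cTEC), which present self peptides to immature T cells for positive selection, are known for high constitutive autophagy, a route by which intracellular proteins reach MHC class II molecules.

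To compare cTEC that differ in expression of *Cxcl12*, a chemokine gene, polyA RNA was sequenced from CD45-EpCAM1+UEA1-Ly51+ cTEC of untreated C57BL/6 mice at 10 weeks of age, per the methods. All mice carried the knock-in allele Cxcl12::DsRed, so that *Cxcl12*-expressing cells were labelled by the red fluorescence of DsRed. The *Cxcl12* DsRed- and *Cxcl12* DsRed+ subsets were each sequenced once in experiments A, B and C, so that n = 3 per subset. The sort set the groups by the fluorescence of the reporter at one age, and the sources used here do not give the number of mice behind each library. In sorted bulk samples, fewer cells of a type and less RNA per cell cannot be told apart.

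The libraries held 34574900 to 51042679 counts in genes. DsRed RNA was at 17.6 to 27.8 CPM (counts scaled to library size) in DsRed- libraries and at 860 to 2059 CPM in DsRed+ libraries. The summed level of 11 cTEC markers was 2352 to 3056 CPM in DsRed- and 10341 to 18788 CPM in DsRed+ libraries, and each of the 11 was lower in every DsRed- library. None of them was at 0. Summed markers of several other cell types also differed between the subsets. Over all genes tested, 19.0% did not overlap between the subsets, the share to set beside the counts below. The 14 tuft cell markers summed to 651 to 3630 CPM in DsRed- and 60.7 to 132 CPM in DsRed+ libraries, with 13 of 14 not overlapping. The 13 endothelial markers summed to 55.2 to 114 CPM and 792 to 5985 CPM, with the top value in DsRed+ C and 12 of 13 not overlapping. The 6 fibroblast markers summed to 3659 to 4699 CPM and 1054 to 1818 CPM, mostly *Dcn*. Of these, 1 of 6 did not overlap, near the share of all genes. The 6 myeloid markers summed to 137 to 852 CPM and 22.8 to 81.6 CPM, mostly *Lyz2*, with 2 of 6 not overlapping. The 10 genes induced by cell handling summed to 20250 to 23754 CPM and 11615 to 16989 CPM, with 6 of 10 not overlapping. Sums of the other lists overlapped. The 7 medullary epithelial markers summed to 7074 to 10588 CPM in DsRed- and 3167 to 13344 CPM in DsRed+ libraries, mostly *Ccl21a*. Of these, 1 of 7 did not overlap. The 4 red cell markers summed to 1.64 to 1874 CPM and 135 to 3303 CPM, with 0 of 4 not overlapping. Of the 4 epithelial markers 2 did not overlap, *Epcam* and *Cdh1*, both higher in every DsRed- library, and *Krt8* and *Krt18* overlapped. Of the 12 thymocyte and 6 pericyte markers 0 did not overlap. No gene on these lists was at 0 in all libraries. The part of these differences in the values below was not tested. DsRed- libraries also resembled each other less, with a correlation of log2 CPM across genes of 0.769 to 0.822, than DsRed+ libraries did (0.865 to 0.923), and DsRed- C correlated at 0.866 with DsRed+ A.

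None of the 37 autophagy genes passed the test between the subsets. With edgeR's quasi-likelihood test and Benjamini-Hochberg adjustment over all genes, 0 of 37 had an adjusted p under 0.05, where 0.623% of all genes tested did (70 genes or 0.449% higher and 27 or 0.173% lower in DsRed- cTEC). At an unadjusted p under 0.05 there were 2 of 37, or 5.41%, against 11.8% of all genes. By adjusted p, the same test passed 3 of the 11 cTEC, 5 of the 14 tuft cell and 2 of the 13 endothelial markers. Most markers on these lists did not overlap between the subsets, so that many genes without overlap did not pass. edgeR's likelihood ratio test also called 0 of 37, against 5.65% of all genes, and DESeq2 called 1, *Atg2b*, against 8.42%. A fit with the experiment as a block called 0 of 37, against 0.469%. These p-values rest on the variation among the 6 libraries, some of which may come from sorting and library preparation.

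The differences were small on both sides of 0. Throughout, a log2 fold change is DsRed- relative to DsRed+ cTEC, and its interval is the 95% interval of the fit. The median over the 37 genes was 0.00, against 0.02 over all genes tested, with 19 estimates above 0 and 18 below. For 30 of the 37 the estimate lay within 1.5-fold either way, and only *Atg16l2* exceeded 2-fold. The interval lay wholly within 2-fold for 16 of 37 genes, or 43.2%, against 20.1% of all genes tested, most of which had fewer counts. For the other 21 a 2-fold difference lay inside the interval, and the p-value does not show that the subsets were alike. Libraries of the subsets did not overlap for 5 of 37 genes, or 13.5%, against 19.0% of all genes. *Atg2b*, *Atg4d* and *Tax1bp1* were higher in every DsRed- library, where 9.73% of all genes were, and *Map1lc3b* and *Gabarap* were lower, where 9.32% were. For a single gene without overlap the two-sided exact permutation test gives p = 0.1, the smallest that 3 against 3 libraries allow. Within experiments, 7 genes were higher and 6 lower in DsRed- cTEC in all 3, together 35.1% of the members against 35.0% of all genes.

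**Figure D1:**
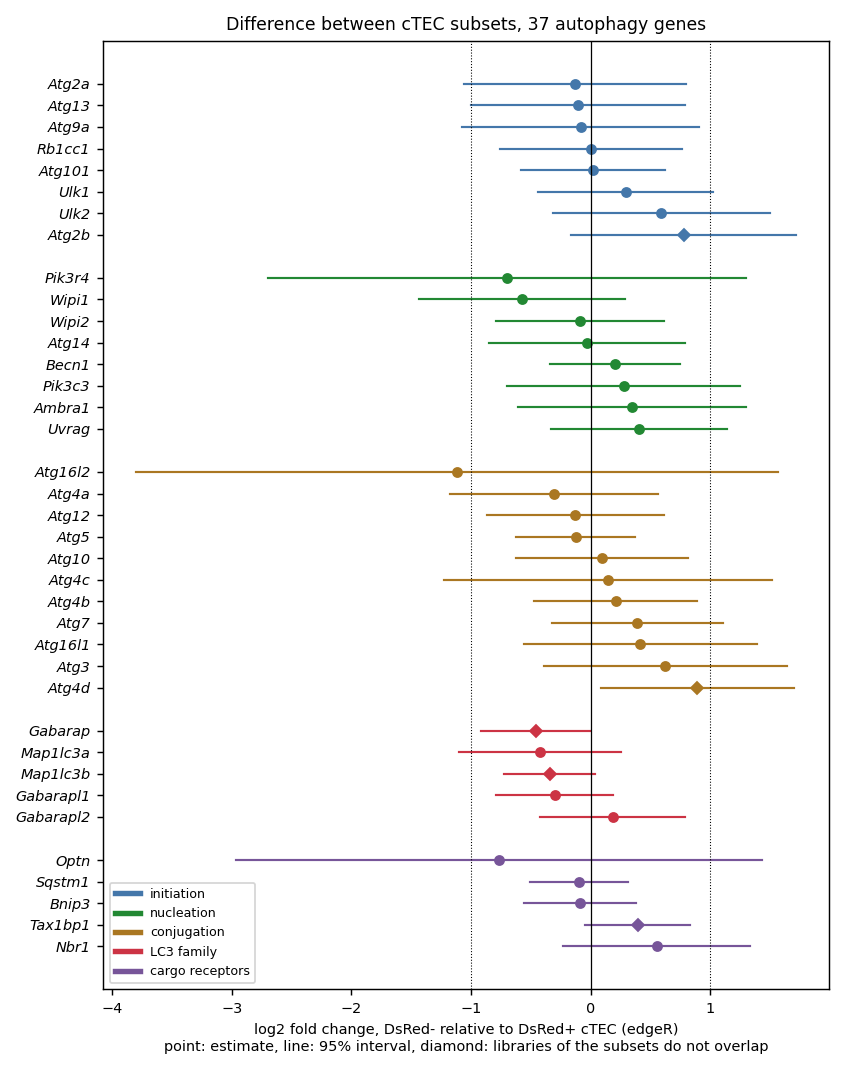
Log2 fold change of DsRed- relative to DsRed+ cTEC (x axis) for each of the 37 genes (y axis, coloured by step), with points for the estimate, lines for the 95% interval and diamonds for the 5 genes whose libraries do not overlap between subsets. Most points lie near 0, 16 intervals stay between the dotted lines at a 2-fold change, and *Atg16l2*, *Optn* and *Pik3r4* have the widest intervals.

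The members had more counts than most genes tested, with a median percentile of mean CPM of 72.8 and 33 of 37 above the median gene. The spread of log2 values is generally smaller at higher counts, so that the members and all genes differ in level where their spreads or intervals are set side by side. The within-subset SD of log2(CPM + 0.5) had a median of 0.37 in DsRed- and 0.34 in DsRed+ cTEC, against 0.56 and 0.42 over all genes tested. Their median standard error was 0.32 on the log2 scale, against 0.57. No test was made of these differences. DsRed- B and DsRed+ C each held the lowest value of 9 of the 37 genes, or 24.3%, against 25.2% and 17.1% of all genes tested. DsRed- A held that of 5, or 13.5%, against 22.1%.

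The 8 initiation genes had log2 fold changes of −0.13 to 0.78, with a median of 0.01, and 0 of 8 passed. These genes encode the ULK kinase complex, which responds to nutrient state, the membrane protein ATG9A and the lipid transfer proteins ATG2A and ATG2B. *Atg2b* was at 17.3, 14.8 and 17.6 CPM in the DsRed- libraries A, B and C and at 9.17, 10.6 and 9.25 CPM in the DsRed+ libraries. The subsets did not overlap. Its log2 fold change was 0.78 ± 0.40 (SE), with an interval of −0.16 to 1.72 and an adjusted p of 0.540 by edgeR and 0.0260 by DESeq2, and over all alternatives the adjusted p ran from 0.0260 to 0.818. The SD between libraries was 1.57 CPM in DsRed- and 0.777 CPM in DsRed+ cTEC.

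*Ulk2*, which encodes a kinase that starts the process, was at 21.3, 30.9 and 17.9 CPM in DsRed- and at 18.4, 16.4 and 11.8 CPM in DsRed+ libraries. DsRed- C lay below DsRed+ A, so the subsets overlapped, and the log2 fold change was 0.59 ± 0.38 (SE, interval −0.32 to 1.5, edgeR adjusted p = 0.655). *Atg101*, a stabilising subunit of the kinase complex and the initiation gene with the most RNA per kilobase, was at 86.4, 67.1 and 51.6 CPM in DsRed- and 70.6, 73.1 and 58.8 CPM in DsRed+ libraries. Its log2 fold change was 0.02 with an interval of −0.58 to 0.62, and the estimate was negative under library totals alone, without the filter, with the block and without DsRed- A or DsRed+ C. *Ulk1*, *Rb1cc1*, *Atg13*, *Atg9a* and *Atg2a* had estimates of −0.13 to 0.29. *Rb1cc1*, the scaffold of the complex, had a mean of 23.5 ± 5.69 CPM in DsRed- and 23.4 ± 1.27 CPM in DsRed+ cTEC (SD, n = 3), an interval of −0.76 to 0.77.

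The 8 nucleation genes encode the class III phosphatidylinositol 3-kinase complexes and the WIPI proteins that read the lipid they make. Their log2 fold changes ran from −0.70 to 0.41 with a median of 0.09, 0 of 8 passed, and no gene separated the subsets. *Becn1*, the Beclin 1 subunit, was at 178, 116 and 113 CPM in DsRed- and at 122, 111 and 120 CPM in DsRed+ libraries. DsRed- A stood above the other libraries, and the log2 fold change of 0.21 (interval −0.34 to 0.75) became −0.06 without it. *Cntd1*, on the opposite strand, shares 43.9% of the exon bases of *Becn1*, and reads of the overlap cannot be assigned where counting ignores strand.

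*Uvrag*, an alternative partner of Beclin 1, was at 40.3, 36.2 and 24.5 CPM in DsRed- and at 21.7, 24.2 and 30.4 CPM in DsRed+ libraries, with a log2 fold change of 0.41 ± 0.31 (SE, edgeR adjusted p = 0.729). *Wipi1* ran the other way, at 16.1, 14.8 and 20.8 CPM in DsRed- and 33.5, 24.7 and 18.6 CPM in DsRed+ libraries, a log2 fold change of −0.57 ± 0.36 (SE, edgeR adjusted p = 0.648). For both genes the libraries of experiment C crossed the order of A and B. *Pik3c3*, the catalytic kinase, averaged 48.7 ± 20.8 CPM in DsRed- and 40.2 ± 15.0 CPM in DsRed+ cTEC, and its partner *Atg14* 30.9 ± 10.8 and 31.6 ± 5.80 CPM (SD, n = 3).

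The regulatory subunit gene *Pik3r4* had its lowest value by far in DsRed- B. It was at 19.7, 2.31 and 33.6 CPM in DsRed- and at 42.5, 19.0 and 28.8 CPM in DsRed+ libraries. DsRed- B held 76 of its reads where the other libraries held 853 to 2251. The same library was lowest for *Atg16l2*, with 7 counts against 390 to 702, and for *Optn*, with 43 counts against 261 to 859. These 3 genes, singled out after their values were seen, had the widest intervals of the 37, and their log2 fold changes of −0.70, −1.11 and −0.77 became −0.18, −0.55 and −0.25 without DsRed- B. None of the 3 passed with or without that library.

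The 11 conjugation genes had a median log2 fold change of 0.14 and a range of −1.11 to 0.89, and 0 of 11 passed. ATG7 activates and ATG3 and ATG10 transfer the ubiquitin-like proteins, the ATG12, ATG5 and ATG16L1 complex directs them to the membrane, and the 4 ATG4 proteases trim and recycle them. *Atg4d* was at 42.1, 42.0 and 26.1 CPM in DsRed- and at 18.6, 15.6 and 25.2 CPM in DsRed+ libraries. The subsets did not overlap, though DsRed- C and DsRed+ C lay within 1 CPM of each other. The log2 fold change was 0.89 ± 0.34 (SE), with an interval of 0.09 to 1.70 and an edgeR adjusted p of 0.362. *Kri1*, on the opposite strand, shares 19.3% of its exon bases. The other proteases had smaller estimates, −0.31 for *Atg4a*, 0.21 for *Atg4b* and 0.14 for *Atg4c*, each with an interval that spanned 0.

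*Atg3* was at 20.2, 58.7 and 52.2 CPM in DsRed- and at 23.1, 31.7 and 30.2 CPM in DsRed+ libraries, higher in DsRed- cTEC in B and C and lower in A. Its log2 fold change was 0.63 ± 0.43 (SE, interval −0.39 to 1.64, edgeR adjusted p = 0.681). *Atg5*, the conjugation gene with the most RNA per kilobase, was at 67.2, 54.3 and 52.5 CPM in DsRed- and at 69.4, 61.0 and 59.6 CPM in DsRed+ libraries, lower in each of the 3 experiments. Its log2 fold change was −0.13 with an interval of −0.63 to 0.37, so that a 2-fold difference in either direction lay outside it. *Atg7*, *Atg10*, *Atg12* and *Atg16l1* had estimates of −0.13 to 0.41. *Atg16l2*, a relative of *Atg16l1*, had a mean of 6.56 ± 5.54 CPM in DsRed- and 14.2 ± 4.03 CPM in DsRed+ cTEC (SD, n = 3).

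The 5 LC3 family genes had log2 fold changes of −0.46 to 0.18 with a median of −0.34, of which 4 were negative, and 0 of 5 passed. The groups were not tested against each other. Its 2 members without overlap had the most RNA per kilobase in the family. *Gabarap* was at 407, 399 and 406 CPM in DsRed- and at 443, 660 and 565 CPM in DsRed+ libraries. The DsRed- libraries lay within a narrow band and each DsRed+ library lay above it. The log2 fold change was −0.46 ± 0.19 (SE), with an interval of −0.92 to 0.00 and an edgeR adjusted p of 0.422.

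*Map1lc3b*, which encodes LC3B, the usual marker protein of autophagosomes, was at 799, 730 and 879 CPM in DsRed- and at 1026, 975 and 1054 CPM in DsRed+ libraries. Every DsRed- library lay below every DsRed+ library. The log2 fold change was −0.34 ± 0.16 (SE, interval −0.72 to 0.04, edgeR adjusted p = 0.487). With 1 library left out, the estimate of *Map1lc3b* ran from −0.41 without DsRed- C to −0.28 without DsRed- B. That of *Gabarap* ran from −0.64 without DsRed+ A to −0.31 without DsRed+ B.

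The other 3 members overlapped between subsets. *Map1lc3a*, which encodes LC3A, was at 77.5, 74.3 and 74.4 CPM in DsRed- and at 90.2, 143 and 70.5 CPM in DsRed+ libraries, with DsRed+ C below the DsRed- libraries and a log2 fold change of −0.42 (interval −1.10 to 0.25). The estimate was −0.09 without DsRed+ B and −0.66 without DsRed+ C. *Gabarapl1* was at 93.3, 103.4 and 71.5 CPM in DsRed- and at 103.0, 119.7 and 108.0 CPM in DsRed+ libraries, a log2 fold change of −0.30 (interval −0.80 to 0.19), and a gene on the opposite strand shares 28.3% of its exon bases. *Gabarapl2*, at 132, 168 and 123 CPM in DsRed- and 92.3, 121 and 160 CPM in DsRed+ libraries, was the family member with a positive estimate, 0.18 (interval −0.42 to 0.79), which became −0.03 without DsRed+ A.

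**Figure D2:**
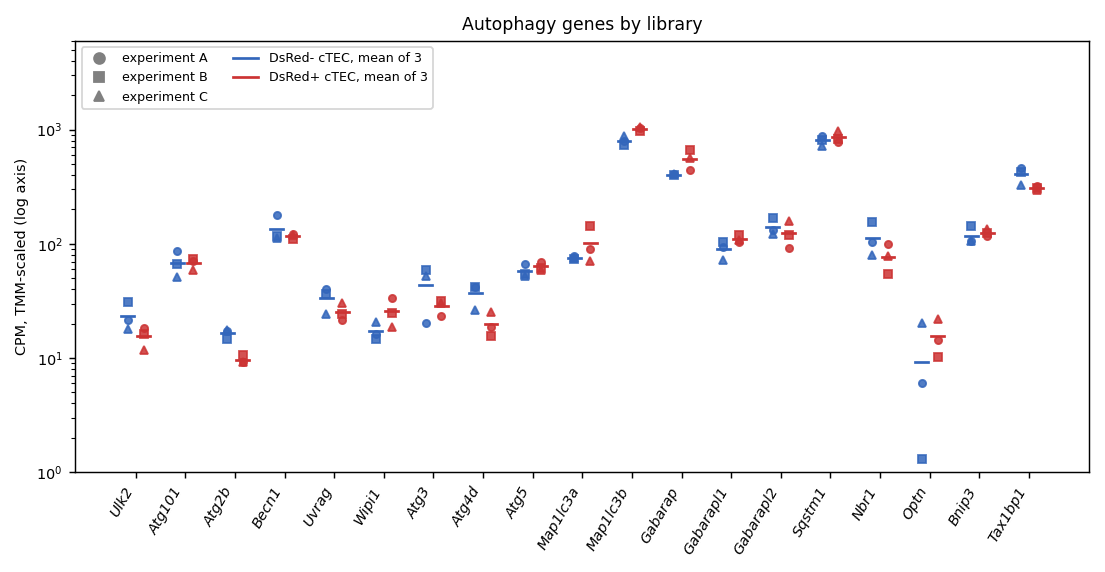
TMM-scaled CPM (y axis, log scale) of the 19 members described library by library, in DsRed- (blue) and DsRed+ (red) cTEC. Marker shapes give the experiment, and a bar gives the mean of 3. *Gabarap* and *Map1lc3b* lie lower, and *Atg2b*, *Atg4d* and *Tax1bp1* higher, in every DsRed- library, and the other genes overlap.

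Summed per kilobase of merged exons, the 5 LC3 family genes gave 496, 500 and 488 CPM per kilobase in DsRed- and 544, 720 and 628 CPM per kilobase in DsRed+ libraries. The sums did not overlap, at 495 ± 5.87 and 631 ± 88.2 CPM per kilobase (SD, n = 3). Most of the sum came from *Gabarap* and *Map1lc3b*, which did not overlap on their own, so it is not a separate result. With the length of the principal transcript, an alternative chosen after the data were seen, the sums were 816, 807 and 827 against 926, 1140 and 1052 CPM per kilobase. The makeup of the family overlapped between the subsets for all 5 members. *Gabarap* took 44.3% ± 0.893 of the sum in DsRed- and 47.5% ± 2.97 in DsRed+ cTEC, and *Gabarapl2* 12.2% ± 1.91 and 8.48% ± 2.12. *Map1lc3b* took 21.6% and 21.8% by merged exons and 38.8% and 39.0% by the principal transcript, because its merged exons are longer, at 7.52 kilobases against 2.53.

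**Figure D3:**
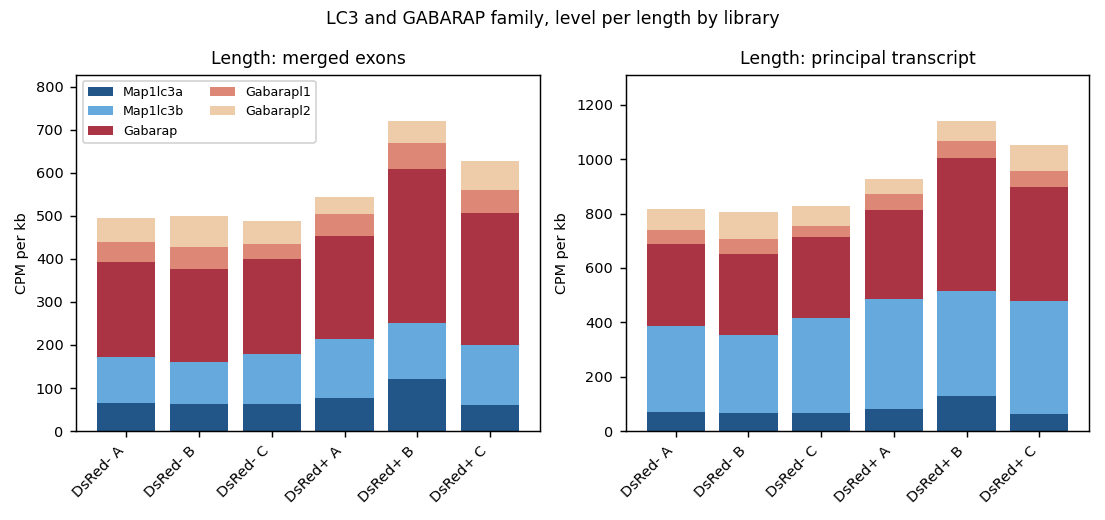
CPM per kilobase of each LC3 family gene, stacked to the sum of the 5, in each of the 6 libraries, by merged exons (left) and principal transcript (right). By merged exons *Gabarap* takes the largest share in every library, 44.3% on average in DsRed- and 47.5% in DsRed+ cTEC. By the principal transcript *Map1lc3b* takes more than *Gabarap* in DsRed- A, DsRed- C and DsRed+ A. The sum is lower in the 3 DsRed- libraries by both lengths.

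The 5 cargo receptor genes had log2 fold changes of −0.77 to 0.55 with a median of −0.09, and 0 of 5 passed. *Sqstm1* encodes p62, the receptor that joins ubiquitinated proteins to LC3. It was at 876, 810 and 724 CPM in DsRed- and at 785, 822 and 971 CPM in DsRed+ libraries, higher in DsRed- cTEC in A and lower in B and C. The log2 fold change was −0.10 with an interval of −0.51 to 0.31, and *Mrnip* on the opposite strand shares 17.3% of its exon bases. *Bnip3*, a mitochondrial receptor, was at 105, 142 and 107 CPM in DsRed- and at 117, 123 and 136 CPM in DsRed+ libraries, a log2 fold change of −0.09 (interval −0.56 to 0.38), and an antisense gene shares 22.3% of its exon bases. For both genes a 2-fold difference lay outside the interval.

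*Tax1bp1*, a receptor related to NDP52, was at 459, 427 and 328 CPM in DsRed- and at 322, 307 and 294 CPM in DsRed+ libraries. Every DsRed- library lay above every DsRed+ library, with DsRed- C the closest. The log2 fold change was 0.39 ± 0.19 (SE, interval −0.04 to 0.83, edgeR adjusted p = 0.493), and 0.27 without DsRed- A. *Nbr1*, which like p62 binds ubiquitin and LC3, was at 105, 156 and 79.3 CPM in DsRed- and at 98.9, 54.9 and 78.2 CPM in DsRed+ libraries, a log2 fold change of 0.55 ± 0.33 (SE, interval −0.23 to 1.34). It was higher in DsRed- cTEC in each experiment, most in B. *Optn*, optineurin, was at 6.03, 1.31 and 20.1 CPM in DsRed- and at 14.4, 10.1 and 22.1 CPM in DsRed+ libraries, a log2 fold change of −0.77 (interval −2.96 to 1.43).

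**Figure D4:**
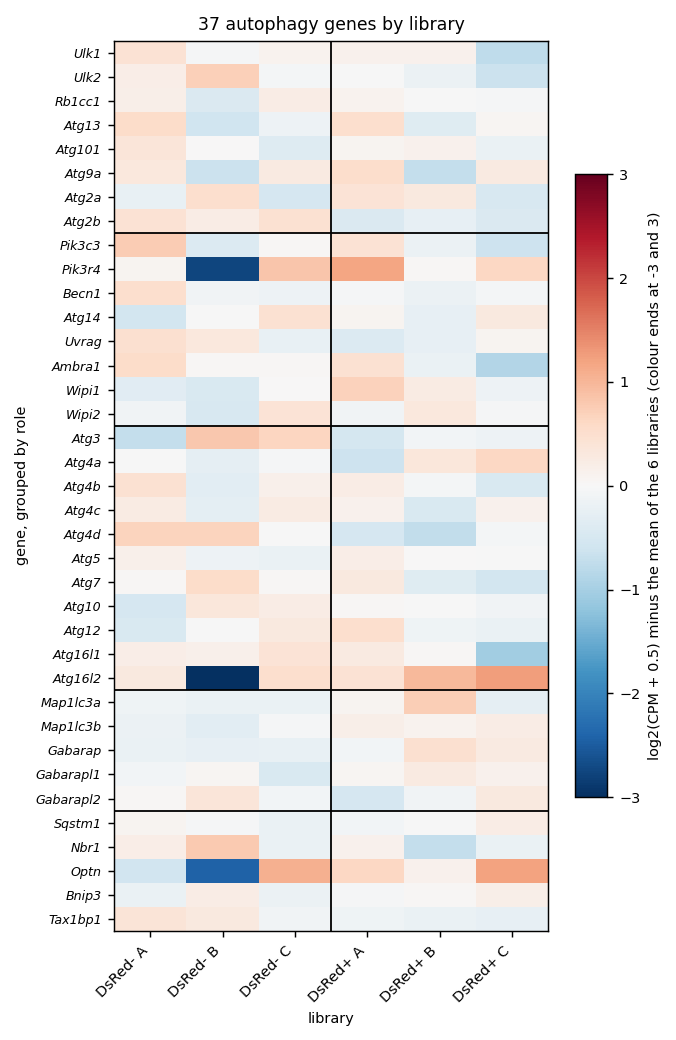
Log2 of CPM plus 0.5 of the 37 genes (rows, by step) in the 6 libraries (columns), as the difference from the mean of the gene over libraries. The low cells of *Pik3r4*, *Atg16l2* and *Optn* in DsRed- B stand apart, and no step has all of its genes higher, or all lower, in one subset.

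Levels of different genes were compared per kilobase only. By merged exons, *Gabarap* had the highest mean over all libraries of the 37, at 260 CPM per kilobase, then *Sqstm1* at 248 and *Map1lc3b* at 121. By subset, *Gabarap* was at 219 ± 2.24 CPM per kilobase in DsRed- and 301 ± 59.1 in DsRed+ cTEC (SD, n = 3). *Sqstm1* was at 239 ± 22.7 and 256 ± 29.4, and *Map1lc3b* at 107 ± 9.91 and 135 ± 5.30. The exon bases that *Sqstm1* shares with *Mrnip* were kept in its length. *Gabarap* and *Sqstm1* changed places between the subsets and did not differ beyond their spread. By the principal transcript, the means over all libraries were 408 CPM per kilobase for *Sqstm1*, 360 for *Map1lc3b* and 355 for *Gabarap*, so that the order of these 3 depended on the length used. *Map1lc3a*, *Gabarapl2*, *Bnip3* and *Gabarapl1* followed by merged exons, at 74.8, 57.0, 53.7 and 49.6 CPM per kilobase. At the low end were *Atg2b*, at 1.23 ± 0.117 CPM per kilobase in DsRed- and 0.718 ± 0.0578 in DsRed+ cTEC, and *Atg16l2*, at 0.774 ± 0.654 and 1.68 ± 0.476 (SD, n = 3), so that the lowest gene differed between the subsets.

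The promoters of the members were read for letters bound by factors that bear on autophagy or on cTEC. RefSeq promoters of 250 bases before to 50 after the start (GRCm38.p6) matched 31 of the 37 genes, with 35 promoters, and both strands were searched. CACGTG, the E-box, was in 5 of 35 promoters, or 14.3%, against 7.15% of all 32851 promoters and 9.45% of the 14409 promoters of tested genes. GTCACGTG, which contains the E-box and is the core of the element bound by TFEB, a lysosomal regulator, was in 3 of 35, or 8.57%, against 2.25% and 3.78%. These were *Atg3*, *Atg7* and *Atg14*. The FOXO letters TGTTTAC were in 0 of 35, against 3.65% and 2.67%. GACGC, letters bound by FOXN1, the main transcription factor of thymic epithelium, were in 23 of 35, or 65.7%, against 27.2% and 42.4%. The promoters set side by side were not matched for base composition. A match of letters is a description and not a binding site, and no test was made.

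The matches in *Atg3* and *Atg7*, with GTCACGTG in capitals, are shown because they hold the longest of the motifs outside exons. The match in *Atg14* lies within exon bases and is not shown. The *Atg3* window, chr16:45158713-45158783 on the plus strand, holds 2 matches at 96 and 73 bases before the start, and the *Atg7* window, chr6:114670942-114670989 on the plus strand, 1 match at 134 bases before a RefSeq start inside the gene:
Atg3: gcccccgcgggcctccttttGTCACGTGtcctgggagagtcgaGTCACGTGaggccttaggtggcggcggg
Atg7: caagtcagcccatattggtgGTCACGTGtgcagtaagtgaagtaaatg

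The FOXN1 letters, held by 21 of the 31 member genes, are shown for the 3 members that were higher in every DsRed- library. They are in capitals as GACGC or, on the other strand, GCGTC. A relation of the letters to the fold change was not tested. A further *Tax1bp1* match, chr6:52713720-52713764 across the gene end, is not shown. The *Atg2b* window lies at chr12:105685273-105685317 on the minus strand, the *Atg4d* windows at chr9:21265059-21265103 and chr9:21265175-21265219 on the plus strand, and the *Tax1bp1* window at chr6:52714076-52714120 on the plus strand, inside the gene before a second RefSeq start:
Atg2b: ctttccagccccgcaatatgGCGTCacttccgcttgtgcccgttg
Atg4d first: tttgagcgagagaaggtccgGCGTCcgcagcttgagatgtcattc
Atg4d second: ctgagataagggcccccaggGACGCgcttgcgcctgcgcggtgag
Tax1bp1: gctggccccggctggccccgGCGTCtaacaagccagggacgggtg

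*Map1lc3b*, which was lower in every DsRed- library, also held these letters, and *Gabarap*, lower as well, did not.

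Other genes of the pathway were read from a list of 94, of which 92 were tested. *Tfec* was under the filter and *Vamp7* was listed at 0. With edgeR's quasi-likelihood test 0 of 92 passed, 10 had an unadjusted p under 0.05 (11.8% of all genes did), and the median log2 fold change was −0.14. The likelihood ratio test called 2, against 5.65% of all genes, and DESeq2 called 6, against 8.42%. Between subsets 5 did not overlap on the higher and 13 on the lower side in DsRed- cTEC, or 5.43% and 14.1%, against 9.73% and 9.32% of all genes. By group, the median was −0.22 for 26 genes of mTORC1 and AMPK, the kinases that sense nutrients, −0.06 for 11 transcription factors, −0.15 for 21 other core genes and regulators, −0.13 for 15 genes of fusion with the lysosome and −0.09 for 19 receptors of mitophagy and ER-phagy.

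The 4 with the smallest p were lower in every DsRed- library, and the next 2, given below, were higher in every one. *Bnip3l*, a mitophagy receptor and the closest relative of *Bnip3*, was at 327, 318 and 270 CPM in DsRed- and at 605, 851 and 588 CPM in DsRed+ libraries, a log2 fold change of −1.16 ± 0.21 (SE) with an edgeR adjusted p of 0.0717. *Calcoco1*, an ER-phagy receptor of the family of *Tax1bp1*, was at 50.3, 41.8 and 58.5 CPM and at 136, 119 and 89.6 CPM, a log2 fold change of −1.19 ± 0.24 (SE, edgeR adjusted p = 0.0923). The likelihood ratio test and DESeq2 both called these 2 genes.

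*Lamp2*, a protein of the lysosomal membrane, was at 542, 551 and 726 CPM in DsRed- and at 1320, 1229 and 894 CPM in DsRed+ libraries, a log2 fold change of −0.92 ± 0.22 (SE, edgeR adjusted p = 0.130). *Ykt6*, a SNARE protein of autophagosome fusion, was at 40.3, 32.9 and 44.5 CPM and at 72.3, 76.6 and 59.1 CPM, a log2 fold change of −0.82 ± 0.23 (SE, edgeR adjusted p = 0.190). DESeq2 called both. For these 2 genes and *Calcoco1*, experiment C had the smallest gap between subsets.

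*Wdfy3* and *Trp53inp1* came next, with p-values close to that of *Ykt6* and the opposite direction, and are named after their values were seen. *Wdfy3*, which encodes a scaffold for clearance of aggregates, was at 94.98, 70.0 and 52.5 CPM in DsRed- and at 42.1, 34.7 and 33.1 CPM in DsRed+ libraries, a log2 fold change of 0.99 ± 0.28 (SE, edgeR adjusted p = 0.199). *Trp53inp1*, a p53 target that binds LC3, was at 78.8, 91.2 and 52.6 CPM and at 40.7, 41.4 and 35.4 CPM, a log2 fold change of 0.92 ± 0.27 (SE, edgeR adjusted p = 0.203). DESeq2 called both, so that its 6 calls were 4 lower and 2 higher in DsRed- cTEC.

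**Figure D5:**
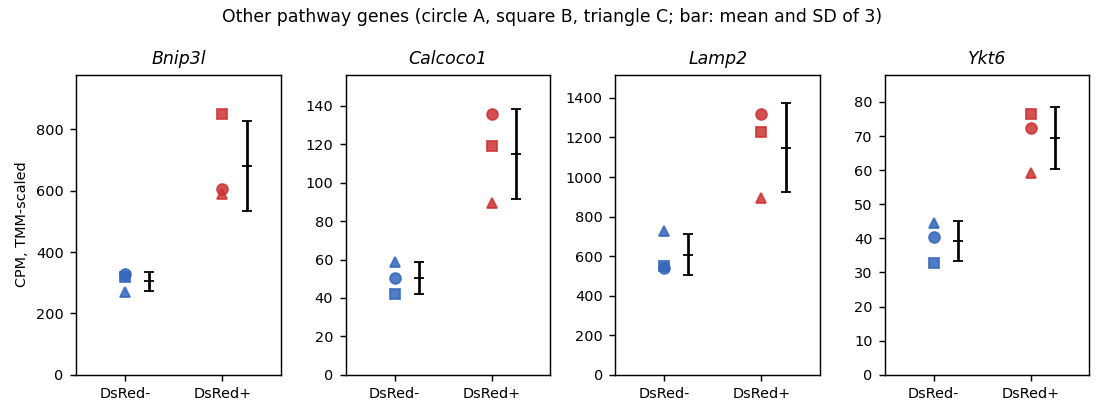
TMM-scaled CPM (y axis) of the 4 other pathway genes with the smallest p, in DsRed- (blue) and DsRed+ (red) cTEC, with a marker shape for each experiment and a bar for the mean and SD of 3. All 3 DsRed- libraries lie below all 3 DsRed+ libraries for *Bnip3l*, *Calcoco1*, *Lamp2* and *Ykt6*.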

How the data were processed

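The authors made the count table by trimming with Trimmomatic 0.36, alignment with STAR 2.7.3a to mm10 and counting per gene with HTSeq, and deposited raw counts for the 6 libraries (SMARTer Ultra Low Input preparation). Which annotation release was used, and whether counting used strand, is not given in the sources used here. Spike-ins, HTSeq summaries and the reporter took no part in library sizes or tests. Symbols and coordinates came from GENCODE M21 of GRCm38, which is mm10, for 37693 of 39179 genes, and promoters from RefSeq.

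The fit used edgeR 4.0.16 and R 4.3.3: filterByExpr with a minimum count of 10, TMM scaling, and the quasi-likelihood test of DsRed- against DsRed+ cTEC with Benjamini-Hochberg adjustment at 0.05 over 15576 genes, tested on simulated data. CPM are TMM-scaled. The alternatives were the likelihood ratio test, DESeq2 1.42.0, the experiment as a block, RLE size factors, library totals alone, no filter and leaving out each library. Experiment letters denote a shared experiment in both subsets. They were taken as pairs in the fit with a block and in the directions within experiments. The main fit, which gave the fold changes, intervals and edgeR adjusted p, had no term for the experiment. Once subset means were removed, the libraries of a pair correlated across genes at 0.0106 (A), 0.0778 (B) and 0.0716 (C). DsRed- and DsRed+ libraries of different letters correlated at −0.0948 to 0.00374, below each of the pairs. No pair of libraries was a duplicate, with a chi-square per degree of freedom of 154 to 663. Depth was 34574900 to 51042679 counts, and the intervals are those of the fit over the 6 libraries.

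The members, lists and tests were chosen with earlier results of these data known. Values in every library are given for members without overlap, the LC3 family, the cargo receptors and, in each other group, the 2 genes of smallest p and the 1 of highest level per kilobase. The other pathway genes named are those that pass or, with none, the 4 of smallest p.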

Additional observations from a re-analysis of the deposited data

How the results depend on the processing

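No alternative called a member except DESeq2, which called 1. Over all genes, the quasi-likelihood test called 97, the likelihood ratio test 880, DESeq2 1422 and the fit without a filter 168. Among the other pathway genes the likelihood ratio test called 2 and DESeq2 6. Genes called ran from 0 to 131 when 1 library was left out: 0 without DsRed- A, DsRed- B, DsRed+ A or DsRed+ B, 1 without DsRed+ C and 131 without DsRed- C. With the experiment as a block, which pairs the libraries, 0 members were called and the median member log2 fold change was −0.03, and the block changed no call of a member. Leaving out 1 library moved that median between −0.062 and 0.099, the members with an interval within 2-fold between 10 and 15 (16 with all), and the members without overlap between 5 and 18, the last also counting experiments left out whole, a choice made after the data were seen (18 without A, 9 without B, 13 without C). With fewer libraries separation is easier to reach. Of the alternatives for the named members, 220 kept direction and side of the threshold. The exceptions were *Atg2b*, which DESeq2 called, *Atg101*, whose estimate was −0.0069 with the block, −0.035 with library totals and −0.023 without a filter, and which ran from −0.21 to 0.19 with 1 library left out, *Becn1* (−0.063 to 0.32) and *Gabarapl2* (−0.029 to 0.37); the cause was not tested. *Optn* moved from −0.77 to −2.08 without DsRed- C, *Pik3r4* from −0.70 to −1.45, and *Map1lc3a* from −0.42 to −0.09 without DsRed+ B.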
